A study of Mus musculus with 104 samples.

Results

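The 22 arrays described here profile RNA of muscle stem cells (satellite cells) from adult mice on the control diet over 6 times of day. They were chosen by their titles, and the series holds 82 other arrays. T0, T8, T12 and T16 each held 4 arrays, T4 held 5 and T20 held 1. The mice carried a Per1-Venus reporter on a bacterial artificial chromosome (BAC) on the C57B6/J background, and they ate a control diet ad libitum. The diet phase ran for 25 weeks after 3 weeks of adaptation, and the design text puts the adult mice at 19 to 29 weeks of age at the start of the adaptation. All 22 arrays also carry an age tag of 83 to 97 weeks, which is the tag of the aged mice, so title and tag disagree and the title was followed. The other arms entered the same model. They were adult mice under calorie restriction (CR, 30% less food, 32 arrays), aged mice on the control diet (24 arrays) and aged mice under CR (26 arrays), all with the same transgene, and the aged mice were 55 to 69 weeks old at the start. The design text names the times as zeitgeber times, which by convention count from lights on, and states 4 mice per time point and diet. It also states that on each day the mice collected belonged to a single time point, so time of day and anything shared by the arrays of a time point cannot be told apart. The sources used here do not say how cells were sorted or whether mice were pooled.

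Satellite cells lie between a muscle fibre and its basement membrane, are marked by Pax7, and divide to repair the fibre after injury. Like most cells they hold a circadian clock. In it, BMAL1 (gene Arntl) pairs with CLOCK or NPAS2, binds E-boxes and drives the Per genes, the repressor Nr1d2 and the PAR bZIP factors Dbp, Tef and Hlf. PER proteins then shut this drive off, NR1D2 represses Arntl, and NFIL3 competes with the PAR bZIP factors at D-boxes. Light, feeding and adrenal glucocorticoids set the phase of clocks in peripheral tissues.

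Values are log2 expression values, 1 probe set per gene, for 11853 genes. A 24 h cosine was fitted in limma, and a gene was called rhythmic where limma's moderated F test over both curve terms had an adjusted p under 5% (Benjamini-Hochberg over all 11853 genes). Amplitude is the log2 distance from the day mean to the fitted peak, and a fold from trough to peak is given beside it. A value after ± is the standard error (SE) unless SD is written. The 20 satellite cell markers tested had mean log2 values from 5.45 for Barx2 to 12.4 for Gpx3, with 9.9 for Pax7, 10.5 for Myod1, 6.12 for Calcr and 6.49 for Pax3. Markers of other cells were present too. Schwann cell Pmp22 averaged 10.8 and Mbp 10.3, fibroadipogenic Gsn 11 and Dpt 10.9, smooth muscle Myh11 10.8 and Acta2 10.5, endothelial Tek 7.21, Cdh5 7.07 and Pecam1 5.39, and macrophage Cd68 7.88 and C1qa 4.86. Levels of different probe sets are not comparable as amounts of a cell type. Pairs of arrays correlated at 0.942 to 0.983. The leading principal component held 13.4% of the variance, and the 4 T0 arrays lay between -15.3 and -29.3 on it while the other 18 lay between -10.3 and 15.7.

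Of 11853 genes, 1256 were called rhythmic with a 24 h period (10.6%). Their median amplitude was 0.34 against 0.14 over all genes, which are folds of 1.6 and 1.22 from trough to peak. In 172 of them the fold exceeded 2. Called amplitudes ran from 0.12 to 1.85. A test of the 6 time-point means without any curve called 1673 genes (14.1%), and 931 of the 1256 rhythmic genes (74.1%) were among them. The time point with the highest mean lay within 4 h of the fitted peak in 1142 rhythmic genes (90.9%), compared with 76.8% of all genes.

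Fitted peaks gathered around T0 and T12. In windows of 4 h centred on the time points, 243 called genes peaked at T0, 187 at T4, 156 at T8, 279 at T12, 201 at T16 and 190 at T20. Without the single T20 array, 1045 genes were called and 983 of the 1256 remained (78.3%). Their peaks moved by a median of 0.19 h. The windows then held 215, 148, 117, 262, 163 and 140 genes in the same order, so T12 and T0 stayed the fullest. By plain means the order differed, with T8 among the fullest and T12 among the emptiest. Of the 1673 genes called by the time-point test, 380 had their highest mean at T0, 341 at T8, 307 at T20, 243 at T16, 217 at T12 and 185 at T4. T20 is 1 array, so its extremes carry that array's own error.

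**Figure D1:**
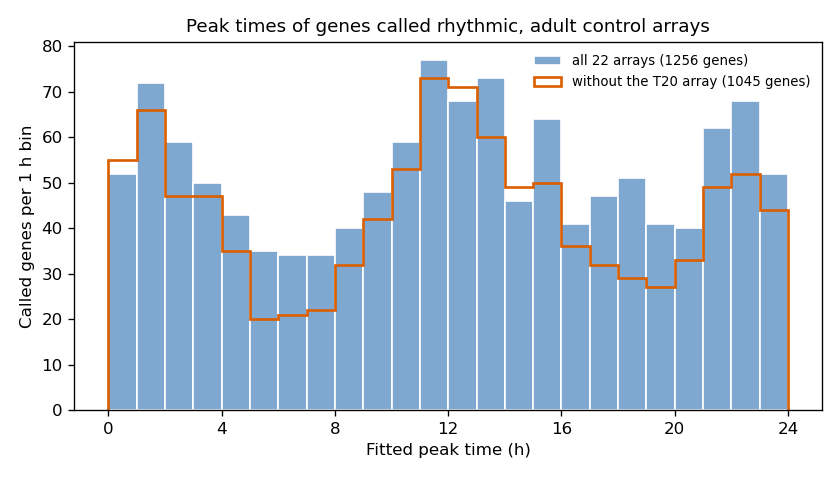
Number of called genes (y axis) by fitted peak time in bins of 1 h (x axis), for the 1256 genes called with all 22 arrays (filled bars) and the 1045 called without the T20 array (line). Both show the most genes near T12 and near T0, with the fewest in the T8 window (156 and 117).

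Among core clock genes, 9 of the 15 tested were rhythmic, against 10.6% of all genes, and the list's median amplitude was 0.31. Genes of the activating arm peaked shortly before T0. Arntl, which encodes the activator BMAL1, read 7.55, 7.5, 7.47 and 7.55 at T0, 6.64 to 7.44 at T4, 5.71 to 6.13 at T8, 4.75, 4.92, 5.24 and 5.77 at T12, 5.92 to 6.76 at T16 and 7.21 at T20. Every T0 value lay above every value at the other times, and T12 was the low point. The fitted peak was at 23.3 ± 0.54 h with a 4.62-fold range (amplitude 1.1 ± 0.16, limma adjusted p = 7.55e-07, n = 22 arrays). Npas2, the CLOCK paralogue, ran from 8.04 to 8.71 at T0 down to 6.88 to 7.22 at T12 and back to 7.93 at T20. It peaked at 22.9 ± 0.42 h with a 2.47-fold range (adjusted p = 6.74e-10). Clock itself had no called 24 h rhythm, with a fitted amplitude of 0.04 (adjusted p = 0.932) and time-point means between 5.05 and 5.51. Its T16 values of 5.4 to 5.49 lay above its T8 values of 4.92 to 5.38, and neither the time-point test (adjusted p = 0.124) nor the 12 h test (0.16) passed.

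Nr1d2 and the Per genes, repressors of the loop, had fitted peaks on the opposite side of the day, from 8.82 h (Nr1d2) to 12.1 h (Per3). Nr1d2, the nuclear receptor that represses Arntl, read 7.39 to 8.21 at T0, 8.38 to 8.84 at T4, 9.29 to 9.6 at T8, 8.99 to 9.07 at T12, 8 to 8.48 at T16 and 7.66 at T20. The T8 values lay above all others. Its fitted peak was at 8.82 ± 0.31 h with a 3.44-fold range (adjusted p = 1.26e-12). Per1 rose from 7.67, 7.98, 8.32 and 8.7 at T0 to 9.33, 9.5, 9.59 and 9.62 at T12, with 9.16 to 9.59 at T8 and 8.8 to 9.09 at T16. All T0 values lay below all others, and T8 and T12 overlapped. Per1 peaked at 10.2 ± 0.47 h with a 2.35-fold range (adjusted p = 4.2e-07). The transgene carries Per1 sequence, and its part in the Per1 signal was not tested.

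Per2 ran from 6.84 to 7.06 at T0 to 8.12 to 8.58 at T8 and 7.99 to 8.8 at T12, and all 4 T0 values lay below the rest. It peaked at 11.3 ± 0.66 h with a 2.73-fold range (adjusted p = 0.000116). Per3 rose from 6.44, 6.46, 7.12 and 7.65 at T0 to 8.4, 8.85, 9.31 and 9.44 at T12 and read 7.04 at T20. T12 and T16 overlapped, since T16 spanned 7.86 to 9.05. Its fitted peak was at 12.1 ± 0.54 h with a 3.83-fold range (adjusted p = 9.47e-08). In order of fitted peak the Per genes ran Per1, Per2, Per3. Neighbours in that order lay closer than the sum of their SEs, and the order was not tested.

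Later repressors followed with smaller swings. Bhlhe41 (DEC2), which competes at E-boxes, peaked at 13.1 ± 1 h with a 1.54-fold range (adjusted p = 0.00492). Ciart, a repressor of BMAL1 and CLOCK, peaked at 15.3 ± 1.1 h with a 1.44-fold range (adjusted p = 0.0107). Nfil3, the D-box repressor, peaked at 20.2 ± 0.58 h with a 1.58-fold range (adjusted p = 0.000419). Its 4 T8 values, 9.36, 9.69, 9.69 and 9.72, were close to the T12 values of 9.68 to 10, and T16 held 10.08 to 10.53. Cry2 (adjusted p = 0.498), Rora (0.196), Bhlhe40 (0.212) and the casein kinases Csnk1d (0.125) and Csnk1e (0.214) did not pass the test. All 9 called clock genes were also called without the T20 array. Bhlhe41 lost its call when the mean of a gene's probe sets was used, and only 1 of its 2 probe sets peaked within 3 h of the reported one.

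**Figure D2:**
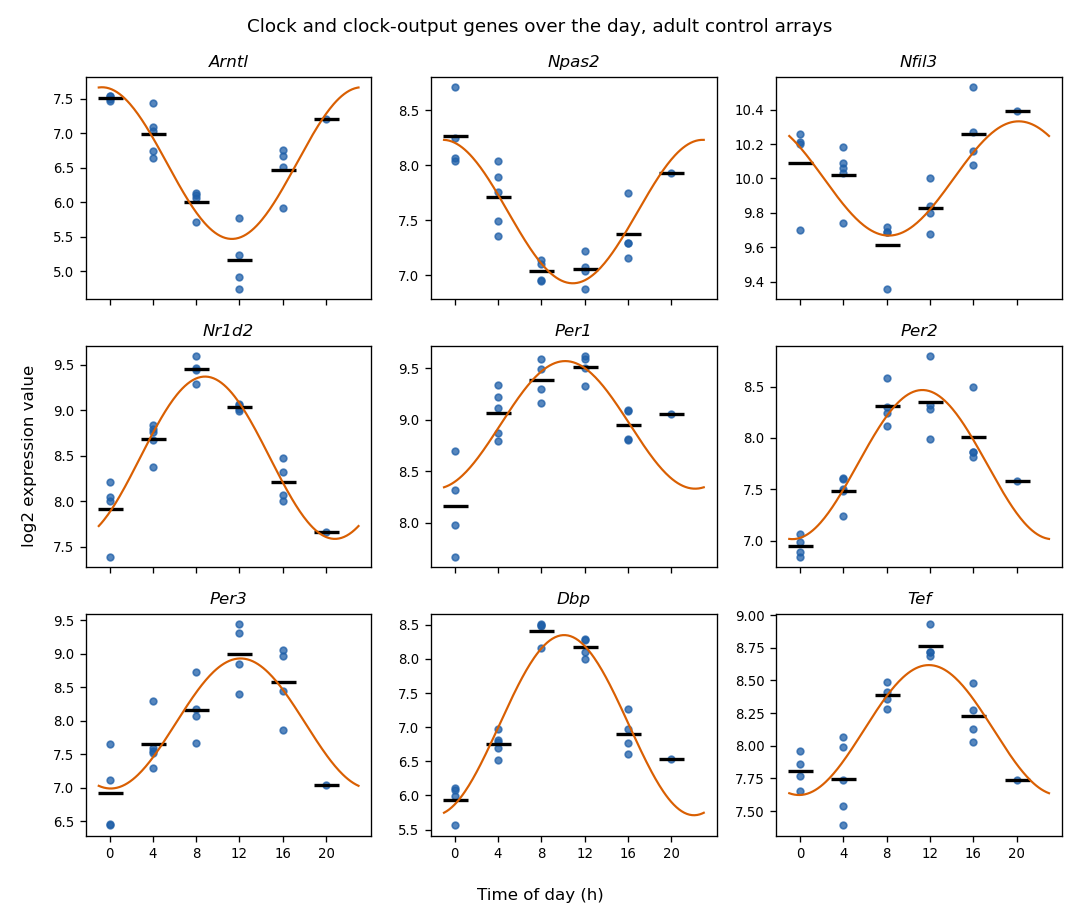
log2 expression value (y axis) against time of day in h (x axis) for 9 clock and clock-output genes. Points are single arrays, black bars are time-point means (T20 is 1 array) and the line is the fitted 24 h cosine. Arntl and Npas2 are highest at T0, Nr1d2 and Dbp at T8, and Per3 and Tef at T12.

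PAR bZIP factors and the other genes of the PAR bZIP output list peaked close together. Whether those other genes are targets of the factors was not tested. Of 6 tested, 5 were rhythmic, with peaks between 10.1 and 11.9 h and a list median amplitude of 0.59. Dbp read 5.56, 5.99, 6.08 and 6.11 at T0, 6.52 to 6.97 at T4, 8.16, 8.48, 8.5 and 8.51 at T8, 8, 8.1, 8.28 and 8.3 at T12, 6.61 to 7.26 at T16 and 6.53 at T20. All T8 and T12 arrays lay above all others. Its fitted peak was at 10.1 ± 0.34 h with a 6.27-fold range (adjusted p = 2.58e-12). Tef, another PAR bZIP factor, rose from 7.65 to 7.96 at T0 and 7.39 to 8.07 at T4 to 8.69, 8.72, 8.72 and 8.93 at T12. All T12 values exceeded all others, and the fit peaked at 11.9 ± 0.58 h with a 1.99-fold range (adjusted p = 1.33e-06). Hlf peaked at 11 ± 0.93 h with a 1.7-fold range (adjusted p = 0.0117), a call that was lost without T0 replicate 4.

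The tetraspanin Tspan4 read 7.14 to 8.11 at T0, 9.07 to 9.3 at T8, 8.84 to 9.41 at T12 and 7.79 at T20. It peaked at 10.3 ± 0.36 h with a 3.02-fold range (adjusted p = 5.44e-12). Wee1, the kinase that holds back entry into mitosis, was low at T0 (6.11 to 7.05) and between 7.63 and 8.62 at every other time. Its fit gave 11.2 ± 0.83 h and a 2.58-fold range (adjusted p = 0.00302). The deubiquitinase Usp2 did not pass (adjusted p = 0.297).

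Sphk2, a sphingosine kinase, had the largest amplitude of the called genes. It read 5.51, 6.11, 6.29 and 6.36 at T0, 7.06 to 7.5 at T4, 9.4 to 9.63 at T8, 8.77, 8.78, 9.34 and 9.41 at T12, 7.22 to 7.88 at T16 and 6.29 at T20. The fitted range was 13-fold with a peak at 10.1 ± 0.24 h (amplitude 1.85 ± 0.13, adjusted p = 6.55e-21), the hour at which Dbp peaked. Annotated spans of Dbp and Sphk2 overlap on chromosome 7, and whether their signals share transcripts was not tested.

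E-boxes and D-boxes next to start sites are shown because the called clock genes differ in which of them they hold. The 250 bases before RefSeq starts (GRCm38.p6) were searched on both strands for the E-box CACGTG, the D-box TTATGTAA or TTACGTAA, the cyclic AMP element TGACGTCA, the glucocorticoid response element GNACANNNTGTNC and, by name, the RORE and the CArG box. No motif spelled out here contains another. The table matched 1000 of the 1256 rhythmic genes and 9543 of the 11853 genes tested. Of 16 promoters of called clock and PAR bZIP list genes, 6 held the E-box (37.5%), compared with 8.16% of 12200 promoters of all genes tested and 9.95% of 1316 promoters of rhythmic genes. Per3 was the single one of them with a D-box, which it held in 2 copies. A D-box stood in 0.615% of all promoters and in 0.684% of those of rhythmic genes, 9 in number. Of these 9, 7 belonged to genes of the T12 window (2.26% of 310 promoters), 1 to the T4 window (0.515%) and 1 to the T20 window (0.549%). The other motifs stood in 2.33% (cyclic AMP element), 0.303% (glucocorticoid response element), 0.189% (RORE) and 1.33% (CArG box) of all promoters and in 2.2%, 0.532%, 0.076% and 1.75% of those of rhythmic genes. Capitals mark the match in 60 bases, written 5′ to 3′ on the gene's strand.
Per1 E-box, chr11:69098756-69098815, plus strand: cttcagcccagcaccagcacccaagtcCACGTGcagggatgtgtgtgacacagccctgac
Tef E-box, chr15:81802519-81802578, plus strand: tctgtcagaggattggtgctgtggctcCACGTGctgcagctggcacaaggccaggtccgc
Tspan4 E-box, chr7:141476302-141476361, plus strand: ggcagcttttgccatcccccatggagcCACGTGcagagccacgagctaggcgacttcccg
Bhlhe41 E-box, chr6:145865541-145865600, minus strand: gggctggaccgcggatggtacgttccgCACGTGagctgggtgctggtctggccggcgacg
Ciart E-box, chr3:95882312-95882371, minus strand: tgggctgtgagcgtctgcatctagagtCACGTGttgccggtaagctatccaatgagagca
Per3 D-box, chr4:151044838-151044897, minus strand: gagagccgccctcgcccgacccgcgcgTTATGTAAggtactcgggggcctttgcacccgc
The genes with an E-box here peaked between 10.2 h (Per1) and 15.3 h (Ciart), and Per3 at 12.1 h. A match describes the letters only, and their part in the day curves was not tested.

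Outside the clock, the genes with the largest swings differed by window. In the T0 window, beside Arntl, were Crybg1, Dhrs3 and Mrln. Crybg1 fell from 6.24 to 6.9 at T0 to 4.36 to 4.74 at T12 and was back at 6.29 at T20 (peak 23.1 ± 0.61 h, 3.71-fold, adjusted p = 2.96e-05). T0 and T12 did not overlap. Mrln, a small peptide that inhibits the muscle calcium pump, peaked at 22.5 ± 0.53 h with a 3.01-fold range (adjusted p = 4.52e-06). Dhrs3, which turns retinal back to retinol, peaked at 0.501 ± 0.62 h with a 3.23-fold range (adjusted p = 1.61e-06), and its T0 arrays spread from 6.51 to 8.81.

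By fitted peak, the T4 window was led by Iqsec3, the chemokine Ccl27a, the imprinted gene Zim1 and the guidance cue Ntn1. Their ranges were 2.54 to 2.95-fold, with fitted peaks at 2.1 to 3.08 h. By plain means each of them was highest at T0. Zim1 was 7.11 to 8.47 at T0 and 7.13 to 8.21 at T4, and its T16 values of 5.97 to 6.63 overlapped with neither (peak 3.08 ± 0.81 h, adjusted p = 0.000263). Kif24, a kinesin that acts at centrioles, had a similar fitted peak (3.41 h, adjusted p = 0.00109) and its highest mean at T0 too. It read 7.35 to 7.55 at T0, 6.98 to 7.45 at T4 and, at its lowest, 5.69 to 6.45 at T16.

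By fitted peak, the T8 window was led by Thbs4, Zbtb16, Apold1 and Timm10b. Zbtb16 had no separate high at T8. Its mean was 7.07 at T0 and between 9.6 and 10.15 at the other times, highest at T4. Apold1, an early-response gene of vascular cells, peaked at 7.23 ± 0.66 h with a 4.82-fold range (adjusted p = 0.00145), and its T8 values of 7.44 to 8.9 overlapped widely with those of T4 (6.92 to 8.82) and only at their edge with those of T0 (5.83 to 7.47). Thbs4, a matrix protein of tendon and muscle, peaked at 9.77 ± 0.69 h with a 6.03-fold range (adjusted p = 0.0019). Thbs4 is a tenocyte marker here and 1 of the 7 genes averaged in the tenocyte score, so gene and score are not independent. The score had its highest mean at T8 (6.55 ± 0.49 SD against 5.23 ± 0.23 at T0, n = 4 each). Its part in the Thbs4 curve was not tested.

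In the T12 window, beside Dbp and Sphk2, Hes7 and Tnnc2 had the largest swings. Hes7, a repressor of the HES family, read 8.43, 8.53, 8.69 and 8.77 at T12. At T4 it read 5.1, 5.12, 8.03, 8.38 and 8.43, so replicates of a time point fell into separate levels. The fit gave 12.7 ± 0.92 h and a 4.03-fold range (adjusted p = 0.00221), and the call was lost in the 22 arrays alone and with a Schwann cell score as a covariate. Tnnc2, fast troponin C of muscle fibres, spread from 5.24 to 10.05 within T16 (fitted peak 11.1 ± 0.94 h, adjusted p = 0.0123). Its T16 maximum was on the array with the highest myofibre score, 7.52 against a median of 5.975. Tnnc2 is itself 1 of the 13 genes averaged in that score, so the 2 are not independent.

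Other genes had their fitted peak in the T16 and T20 windows. Osbpl6, an oxysterol-binding protein relative, read 7.01, 7.2, 7.25 and 7.47 at T16, 6.63 at T20, 6.09 to 6.3 at T0 and 5.29 to 5.41 at T4. T16 lay above every other array, and the fit peaked at 17.7 ± 0.49 h with a 3.57-fold range (adjusted p = 2.35e-07). Fmo2, a flavin monooxygenase, read 8.61, 9.07, 9.77 and 10.08 at T16 and 6.86 to 7.89 at T4 (peak 15.9 ± 0.77 h, 3.83-fold, adjusted p = 0.000226). Cntfr, the receptor of ciliary neurotrophic factor, peaked at 16.1 ± 0.72 h (2.36-fold, adjusted p = 7.67e-05). In the T20 window the adhesion gene Mpzl2 read 5.35 to 6.22 at T8 and 6.3 or more on every other array (peak 20.3 ± 0.59 h, 3.33-fold, adjusted p = 0.000521). The adhesion gene Alcam peaked at 21.6 ± 0.54 h (2.48-fold, adjusted p = 4.8e-05), with 6.67, 7, 7.28 and 7.31 at T0 and 5.24 to 6.19 elsewhere. By plain means Mpzl2 and Alcam were highest at T0, not at T20. Mpzl2 read 7.49 to 8.46 at T0, 7.24 to 7.76 at T16 and 7.37 at T20, and Alcam read 6.16 at T20. Of these genes of the T16 and T20 windows, all were called without the T20 array.

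Groups of genes with a shared function were described by counts, beside the 10.6% called and the median amplitude of 0.14 over all genes. Extracellular matrix genes had 9 of 34 called, 8 without the T20 array (median amplitude 0.21), and 6 of the 9 peaked in the T0 window. These were the collagen genes Col4a1, Col5a1 and Col5a3, the crosslinking enzyme Loxl1 and the matrix proteases Mmp2 and Mmp14. The list as a whole was not high at T0. Against the mean of T4 to T16, a contrast chosen after the values were seen, 4 of the 34 were higher at T0 and 7 lower. The shares over all genes were 4.34% and 3.78%. The list's median difference was -0.08 against 0.03 over all genes. Its mean score was 8.4 at T0, 8.55 at T4, 8.66 at T8, 8.32 at T12 and 8.57 at T16. Col5a1 read 9.46 to 9.89 at T0, 9.22 to 9.83 at T4, 8.53 to 8.91 at T12 and 9.31 at T20, and T0 and T12 did not overlap (peak 1.13 ± 0.57 h, 1.87-fold, adjusted p = 6.07e-08). Col5a3 was much alike in time (0.732 ± 0.63 h, 1.87-fold, adjusted p = 1.61e-06), and Mmp2 peaked at 23.9 ± 0.93 h (1.92-fold, adjusted p = 0.00526). The other called matrix genes Timp3, an inhibitor of such proteases, Lamb1 and Dcn peaked between 10.5 and 12.2 h. Without the T0 arrays 4 of the 34 were called, in a fit that called 797 genes over all in place of 1256.

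Actin and serum response factor (SRF) target genes had 8 of 23 called, 6 without the T20 array, and 4 of the 8 peaked in the T4 window (median amplitude 0.22). Actg1, cytoplasmic gamma actin, read 10.83 to 10.95 at T0, 10.62 to 11.05 at T4, 10.32 to 10.46 at T12 and 10.19 to 10.64 at T16, with a peak at 2.46 ± 0.73 h and a 1.44-fold range (adjusted p = 2.96e-05). Actb, Tpm1 and Ccn1 peaked between 3.59 and 5.29 h. The matricellular gene Ccn2, a target of SRF and YAP, peaked at 7.86 ± 0.62 h with a 2.83-fold range (adjusted p = 0.000981). Without the T0 arrays 8 of 23 were called, and without the T4 arrays 5, in fits that called 797 and 1330 genes over all. Called markers of pericytes and smooth muscle, which are rich in actin filaments, did not share a single peak time. Of 8 tested, 3 were called, with Mylk at 4.78 h, Acta2 at 4.95 h and Des at 17.9 h. Without the T20 array Mylk and Acta2 lost their calls, and Des was the 1 marker still called. The score of the 8 markers, their mean log2 value, averaged 9.03 ± 0.3 SD at T4 (8.69 to 9.39, n = 5). At T16 the score averaged 8.68 ± 0.3 SD (8.45 to 9.1, n = 4), with overlap, and it read 8.32 at T20. Its part in the actin and SRF curves was not tested.

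Of 20 satellite cell identity genes, 3 were called (15%, 2 without the T20 array, median amplitude 0.15). In the 24 h test 10 of the 20 had an unadjusted p under 0.05, as did 3208 of all 11853 genes. The time-point test called 5 of the 20, against 14.1% of all genes. Of the 20, 4 were lower at T12 than at T0, against 3.21% of all genes. Cdh15, M-cadherin, which tethers the cell to the fibre, read 8.17 to 8.57 at T0, 8.13 to 8.88 at T4, 8.41 to 8.58 at T8, 7.46 to 8.05 at T12, 7.07 to 7.85 at T16 and 7.5 at T20. All arrays of T0, T4 and T8 lay above all others, and the fit peaked at 4.58 ± 0.62 h with a 2.01-fold range (adjusted p = 5.92e-06). Myod1 peaked at 1.34 ± 1.25 h with a 1.43-fold range (adjusted p = 0.0278). That call was lost without T0 replicate 1, T0 replicate 2, T12 replicate 1 or T16 replicate 1. Fgfr4 had a fitted peak at 23.8 ± 1.18 h and a 1.25-fold range (adjusted p = 0.038, and 0.0501 without the T20 array). The list's median T12 minus T0 difference was -0.34 against -0.03 over all genes. The identity score, the mean log2 value of the list, was 9.24 to 9.49 at T0 and 8.96 to 9.21 at T12, without overlap. Its time-point means ran from 9.07 at T12 to 9.36 at T0.

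**Figure D3:**
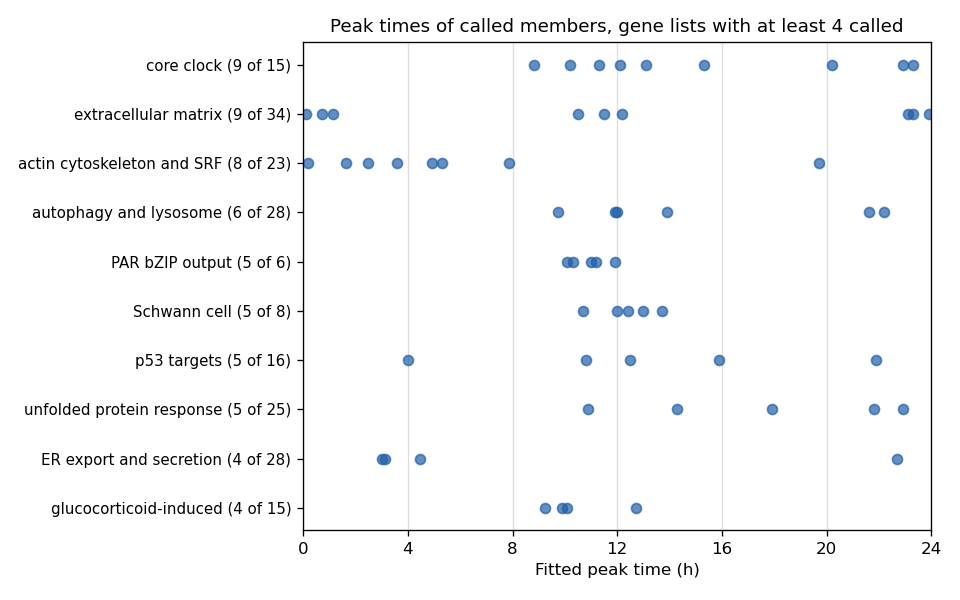
Fitted peak time in h (x axis) of each called gene in the lists with at least 4 called members (y axis, called of tested in brackets). PAR bZIP genes lie between 10.1 and 11.9 h, 7 of 8 actin and SRF genes before 8 h, and matrix genes near T0 and near T12.

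Called genes in lists of metabolic and protein synthesis genes were counted beside the 10.6% called over all genes. Differences between these lists, or from that share, were not tested. Of 20 fatty acid oxidation genes, 3 were called (15%), all peaking in the T0 window. Etfa, the electron carrier of this pathway, peaked at 23.8 ± 0.96 h with a 2.16-fold range (adjusted p = 0.00768), and Cpt1b, a carnitine palmitoyltransferase, at 1.87 ± 0.99 h with a 1.66-fold range (adjusted p = 0.00296). Ech1 was the other (adjusted p = 0.0423, and 0.0641 without the T20 array). None of 23 cytosolic ribosomal protein genes was called (median amplitude 0.06), nor any of 23 ribosome biogenesis genes or 17 TCA cycle genes. limma's time-point test called 0, 2 and 2 of them, against 14.1% of all genes. In the 24 h test 0, 3 and 4 of them had an unadjusted p under 0.05. Sterol and fatty acid synthesis had 2 of 15 called (13.3%, with 9 at an unadjusted p under 0.05). Over all 11853 genes, 3208 had an unadjusted p under 0.05 in the 24 h test. Oxidative phosphorylation had 3 of 28 called (10.7%), and none of the 28 passed without the T20 array. The proteasome had 1 of 31.

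Stress and degradation lists were spread over the day. Of 25 unfolded protein response genes 5 were called, from Herpud1 at 10.9 ± 0.65 h (1.58-fold, adjusted p = 0.000138) to Trib3 at 22.9 ± 0.83 h (1.49-fold, adjusted p = 0.00454). Of 28 ER export genes 4 were called. Sec63, of the translocation channel, read 8.1 to 8.39 at T8 and 6.8 to 7.81 at T16, with a peak at 4.46 ± 0.69 h (2.14-fold, adjusted p = 6.27e-05). Sar1a and Arf1 peaked within 2 h of Sec63, and Sec24d at 22.7 h. Of 28 autophagy and lysosome genes 6 were called, with Atg9a, Atg3, Lamp1 and Foxo3 between 9.75 and 13.9 h and Atg7 and Ctsl at 21.6 and 22.2 h. Of 16 p53 target genes 5 were called, and 2 without the T20 array. The hypoxia list had 2 of 13 called, and none of the 13 passed without it. With the mean of a gene's probe sets in place of the brightest, Herpud1, Sec63 and Foxo3 lost their calls.

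T0 differed from the rest of the day in more genes than any other replicated time. This contrast was chosen after the values were seen. Against the mean of the other 4 replicated times, 515 genes were higher at T0 (4.34%) and 448 lower (3.78%). The corresponding counts were 103 (0.869%) and 95 (0.801%) at T4, 133 (1.12%) and 62 (0.523%) at T8, 68 (0.574%) and 103 (0.869%) at T12, and 176 (1.48%) and 147 (1.24%) at T16. Without T0 replicate 2 the T0 counts were 268 and 248, and without T0 replicate 3 the lower count was 295. The 24 h test had called 489 of these 963 genes.

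Most glucocorticoid-induced genes were low at T0. Of 15 tested, 9 were lower at T0, 1 was higher, 14 had a negative difference, and the list's median difference was -0.29 against 0.03 over all genes. Zbtb16, the zinc finger protein PLZF, read 5.2, 7.33, 7.71 and 8.03 at T0, 9.84 to 10.44 at T4, 9.82 to 10.23 at T8, 9.64 to 10.02 at T12, 8.46 to 10.13 at T16 and 9.69 at T20. All T0 values lay below all others, and the other times differed little. The T0 difference was -2.84 ± 0.27 on the log2 scale, a 7.14-fold lower level (limma adjusted p = 4.2e-13).

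Fkbp5, a co-chaperone that restrains the glucocorticoid receptor, read 5.81, 6.18, 7.09 and 7.1 at T0 and 7.85 to 9.5 on the other 18 arrays (T0 difference -2.27 ± 0.21, 4.82-fold lower, adjusted p = 1.1e-13). Tsc22d3, the anti-inflammatory mediator GILZ, read 5.85 to 7.86 at T0 and 8.02 to 9.81 elsewhere (-1.9 ± 0.2, 3.74-fold lower, adjusted p = 2.67e-11). Neither gene's T0 arrays overlapped with the rest. Klf9, a zinc finger factor induced by these hormones, differed by less but as cleanly, with 10.52 to 10.85 at T0 against 10.92 to 11.37 (-0.56 ± 0.06, adjusted p = 2.06e-12). Klf15, Ddit4, Sesn1, Mt1 and Errfi1 were also lower at T0, with differences from -0.21 for Mt1 to -1.32 for Sesn1, and Sgk1 (adjusted p = 0.183), Cebpd (0.122), Nfkbia (0.324), Dusp1 (0.182) and Pdk4 (0.783) did not pass. Lcn2 was higher at T0 by 0.36.

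Of the 15, 4 were called rhythmic, 6 without the T20 array, and 9 were called by the time-point test. Over all genes 10.6% were called rhythmic with all arrays and 14.1% by the time-point test. The 4 were Zbtb16, Fkbp5, Tsc22d3 and Klf9. The 24 h call of Zbtb16 was lost without T0 replicate 2, and that of Fkbp5 was lost without T0 replicate 2, 3 or 4. Mertk, a receptor for the uptake of dead cells, and Foxo3, a factor that drives atrophy and autophagy genes, had the same T0 step. They were picked for this step after their values were seen. Mertk read 5.74 to 7.36 at T0 and 7.48 to 9.01 elsewhere, and Foxo3 9.44 to 9.75 against 9.85 to 10.65. The mean score of 8 Schwann cell markers was also lowest at T0, with 7.59 to 8.48 against 8.18 to 9.01 on the other arrays. With that score as a covariate, 325 genes were higher and 258 lower at T0, and its part in the T0 differences was not tested further.

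**Figure D4:**
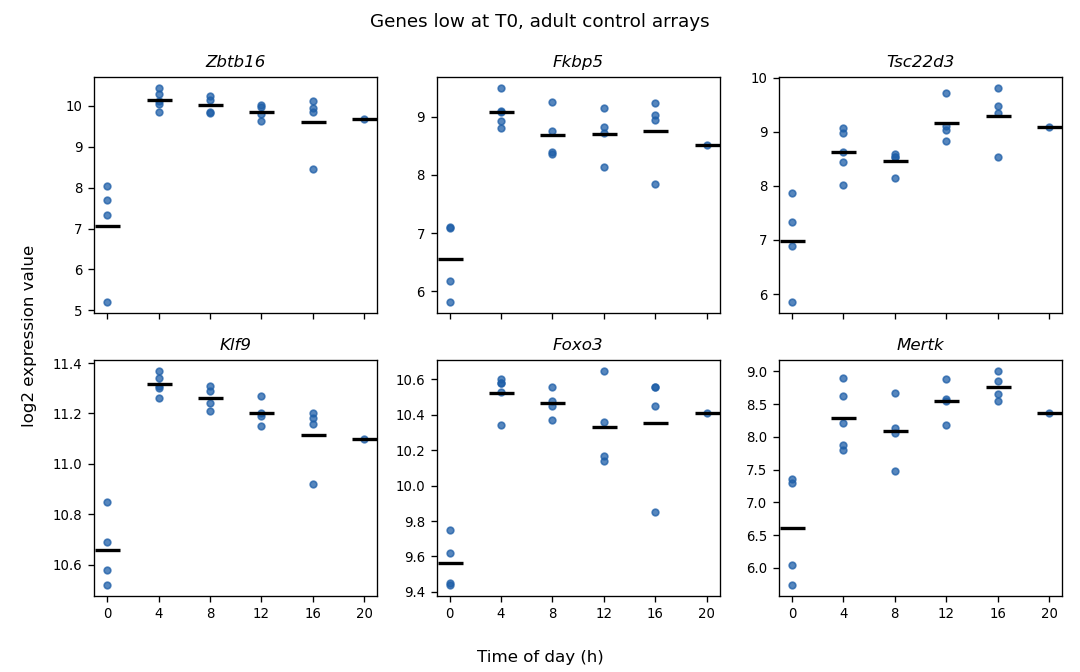
log2 expression value (y axis) by time of day in h (x axis) for 4 glucocorticoid-induced genes and for Foxo3 and Mertk. Points are arrays and black bars are time-point means. In all 6 genes every T0 array lies below every other array.

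The step at T0 was also present in the other arms. T0 minus the mean of T4 to T16 for Zbtb16 was -2.85 (adult CR), -2.9 (aged control mice) and -2.24 (aged CR), and for Fkbp5 it was -2.42, -1.83 and -2.03. The test of the difference between adult control and the mean of the other arms in this contrast called 4 genes (0.0337%), while 964 had an unadjusted p under 0.05. Alcam was higher at T0 by 1.31 in adult control and by 0.35, 0.48 and 0.01 in adult CR, aged control and aged CR (adjusted p = 0.00137). Elf3, an epithelial transcription factor, differed by 0.49 against 0.06, 0.28 and 0.01, and Sphk2 by -2.28 against -1.39, -1.48 and -1.13 (adjusted p = 0.0292 for both). For Yipf5, a Golgi membrane protein, the contrast was -0.75 in adult control and 0.37, 0.11 and 0.49 in the others (adjusted p = 0.0292).

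Several genes high at T0 are named here, chosen after their values were seen. Cdon, a surface receptor that promotes myogenic differentiation, read 9.99, 10.26, 10.33 and 10.6 at T0 against 8.72 to 9.17 at T12 and 8.11 to 9.66 at T16 (1.03 ± 0.17, adjusted p = 2.25e-05). Its T8 values reached 10.04, so T0 and T8 overlapped. Cdh4, R-cadherin, was higher at T0 by 1.12 ± 0.18 (adjusted p = 4e-06), Fgfr4 by 0.38 ± 0.07 (adjusted p = 6.29e-05) and the annexin Anxa5 by 0.59 ± 0.1 (adjusted p = 1.45e-05).

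Between opposite times of day, 329 genes were higher at T12 than at T0 (2.78%) and 381 lower (3.21%). Sphk2 rose by 3 ± 0.22 on the log2 scale, Zbtb16 by 2.79 ± 0.35, Hes7 by 2.49 ± 0.51 and Dbp by 2.24 ± 0.24 (limma adjusted p = 1.59e-18, 1.06e-08, 0.000664 and 9.63e-11). Arntl fell by 2.34 and Crybg1 by 1.89 (adjusted p = 2.83e-07 and 4.89e-05), and the receptor tyrosine kinase gene Ret was among the largest falls as well. The counts rested partly on single arrays. They were 191 and 197 without T0 replicate 2, 211 and 222 without T12 replicate 1, and the lower count was 203 without T12 replicate 4.

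Between T16 and T4, 163 genes were higher at T16 (1.38%) and 129 lower (1.09%). Fmo2 was 3.87-fold higher at T16 (1.95 ± 0.38, adjusted p = 0.001), Osbpl6 3.73-fold (1.9 ± 0.25, adjusted p = 7.86e-07) and Cntfr 2.26-fold (1.18 ± 0.23, adjusted p = 0.0016). Zim1 was 2.43-fold lower (adjusted p = 0.00234) and Kif24 2.25-fold lower (adjusted p = 0.000211). Omission of 1 array cut these counts to as few as 58 and 52, without T16 replicate 4. They were 98 and 59 without T16 replicate 1, 81 and 81 without T16 replicate 2, and 71 and 56 without T16 replicate 3. Without T4 replicate 1 they were 93 and 79, without T4 replicate 5 they were 83 and 74, and the lower count was 80 without T4 replicate 4. Clock genes contributed little here. Per3 was 1.9-fold higher at T16 (adjusted p = 0.0367), and Arntl (adjusted p = 0.397), Per1 (0.714) and Dbp (0.812), which pass through similar levels at both times, did not pass.

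A second wave within the day was tested with a 12 h component, which was called in 148 genes (1.25%, with 1888 at an unadjusted p under 0.05). It was led by the phospholipase Pld1, the small GTPase Rhoj, the lysosomal transporter Spns1 and Usp54. Rhoj read 11.08 to 11.3 at T4 and 11.1 to 11.22 at T16 but 10.54 to 10.81 at T12 and 10.81 to 10.96 at T0. These highs and lows did not overlap, but the T8 values of Rhoj, 10.72 to 11.15, reached into both. Its 12 h peaks were at 5.64 and 17.6 h (amplitude 0.26, adjusted p = 0.000816). Pld1 was similar, with 6.91 to 7.7 at T4 and 7.24 to 8.15 at T16 against 6.02 to 6.86 at T12 and 5.37 to 6.78 at T0 (adjusted p = 8.89e-05). Its T8 values of 6.73 to 7.39 overlapped with both levels. Usp54 and Fkbp5 passed as well (adjusted p = 0.00118 and 0.00432), and in both all T0 arrays lay below all others. The number of calls was 247 without the T20 array. It was 97 without T0 replicate 4, 68, 82 and 93 without T4 replicates 1, 2 and 3, 94 without T12 replicate 3, and 83 and 86 without T16 replicates 3 and 4.

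Schwann cell markers moved with time of day. Of 8 tested, 5 were called, with peaks between 10.7 and 13.7 h (median amplitude 0.4). Without the T0 arrays 1 of the 8 was called, in a fit that called 797 genes over all in place of 1256. Sox10, the factor that defines the lineage, read 7.27, 7.43, 7.98 and 8.67 at T0 and 9.09, 9.13, 9.32 and 9.61 at T12, without overlap (peak 13.7 ± 0.87 h, 2.49-fold, adjusted p = 0.000623). Mbp, a myelin protein gene, read 8.96 to 10.28 at T0 and 10.65 to 10.91 at T12 (peak 12.4 ± 0.78 h, 2.03-fold, adjusted p = 0.000314). The mean Schwann cell score spanned 7.59 to 8.48 at T0, 8.2 to 8.57 at T4, 8.18 to 8.96 at T8, 8.68 to 8.94 at T12 and 8.32 to 9.01 at T16, so T0 and T12 did not overlap. In a mixture, fewer cells of a type and less RNA per cell cannot be told apart. With this score as a covariate, 798 genes were called rhythmic in place of 1256, and 692 of them were among the 1256. Arntl, Npas2, Nr1d2, Per1, Per2, Per3, Dbp, Tef, Sphk2, Cdh15, Col5a1, Actg1 and Osbpl6 kept their calls. Zbtb16, Fkbp5, Foxo3, Hes7, Mmp2, Etfa, Timp3 and Myod1 lost theirs.

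The tenocyte and myofibre scores varied widely within time points. The tenocyte score spanned 5.16 to 6.94 within T16 and 5.04 to 5.49 at T0, and the myofibre score 5.47 to 7.52 within T16. With both as covariates, 1183 genes were called, and 1053 of them were among the 1256. Endothelial, macrophage and lymphocyte scores lay between 5.36 and 5.96 on all arrays. Within that range the macrophage score was 5.54 to 5.64 at T8 and 5.82 to 5.96 at T16, without overlap, and 2 of 4 macrophage markers were called, Csf1r at 17.4 h and Cd68 at 17.8 h. Of 5 lymphocyte markers, 2 were called, Cd79a at 16.2 h and Cd79b at 22.8 h, and 1 without the T20 array. The call of Cd79a was lost in 10 omissions of 1 array, that of the T20 array among them. Over all genes 10.6% were called.

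**Figure D5:**
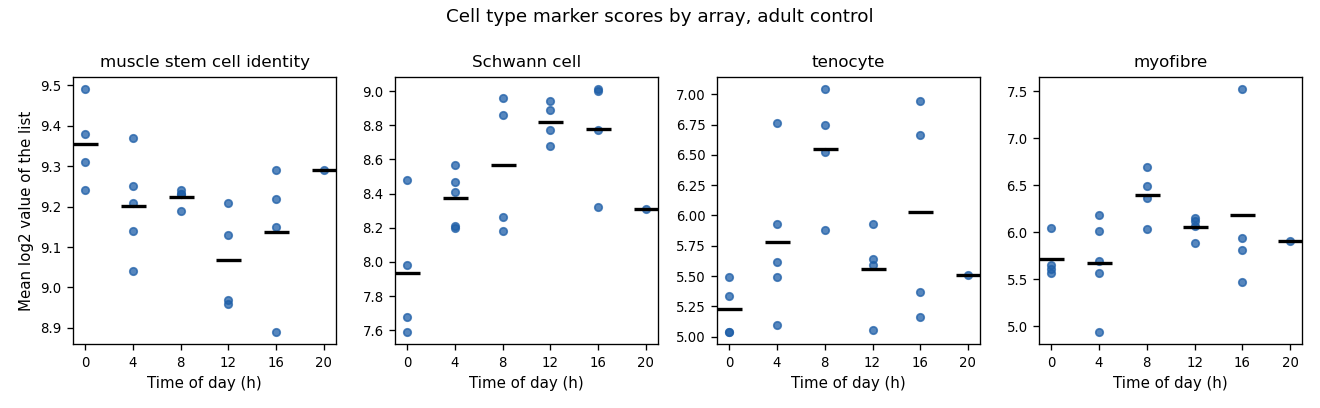
Mean log2 value of 4 marker lists (y axes) on each array by time of day in h (x axis), with black bars for time-point means. The Schwann cell score is lowest at T0 and highest at T12 and T16, the identity score moves by less, and the tenocyte and myofibre scores spread widely within T16.

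The single T20 array was set against curves fitted without it. For the 1045 genes called without it, the array's deviation from the day mean had the predicted sign in 656 (62.8%), with a correlation of 0.36 across genes. For the 517 of them with a predicted deviation of at least 0.2, it had that sign in 360 (69.6%, correlation 0.43), and over all genes in 58.3% (0.24). Genes of an array are not independent of each other, so these shares describe 1 array. Per1 at T20 was 9.06, above all T0 values and inside the T16 range, whereas Nr1d2 at 7.66 and Tspan4 at 7.79 lay inside their T0 ranges.

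The whole 24 h curve differed from the mean of the other arms in 3 genes (0.0253%), while 804 had an unadjusted p under 0.05. Dbp had an amplitude of 1.32 ± 0.13 and a peak at 10.1 ± 0.34 h in adult control, against 1.03 ± 0.1 and 7.77 ± 0.37 h in adult CR, 0.79 ± 0.12 and 10.3 ± 0.56 h in aged control and 0.99 ± 0.12 and 6.92 ± 0.42 h in aged CR. Sphk2, with the arms named in the same sequence, had 1.85 ± 0.13 at 10.1 h, 1.52 at 7.99 h, 1.5 at 10.7 h and 1.4 at 8.14 h. Dhrs3 had 0.85 ± 0.12 at 0.501 h, against 0.46 at 18.8 h, 0.45 at 2.16 h and 0.66 at 19.9 h. Each had an adjusted p of 0.0354, and the next gene, Col5a1, had 0.211. No gene was called without T0 replicate 2, T12 replicate 1 or 2, or T4 replicate 1, 2 or 5.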

How the data were processed

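The deposited values are log2 intensities that the authors summarised by RMA (submitters' processing notes, version not stated). That the logarithm is to base 2 was inferred from the range of 1.19 to 12.8. Per the labels' protocols, 25 ng of RNA was amplified in 17 cycles. RMA compresses differences of dim genes, and arrays have no read depth, so precision depends on how many there are. GEO's platform annotation gave 1 gene symbol to 28898 of 45141 probe sets, several to 551 and none to 15692, and 28689 were matched to RefSeq by Entrez number. The dimmest 40% of probe sets (means under log2 4.5) were dropped and each gene was represented by its brightest remaining one.

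Arrays of all 4 arms were fitted in limma 3.58.1 (R 4.3.3) with a day mean, cosine and sine per arm, and in a second fit with time-point means. p values were adjusted by Benjamini-Hochberg across 11853 genes. The titles call the arrays biological replicates. Members and the 46 gene lists were chosen with earlier results of these data known. Named genes were the members of the clock and PAR bZIP lists, the 12 largest amplitudes, the 4 largest per peak window, up to 4 called members of smallest p per list, and the leading genes of the other tests. Further called list members are named where a count is broken down, and Mertk, Cdon, Cdh4, Anxa5, Elf3, Yipf5 and the genes of the T0 contrast were chosen after their values were seen. Some clock genes are not reported here. The test was checked on simulated data. Rank-based fits used an ordinary F test, since ranks give all genes the same total variance. Alternatives covered the probe filter and summary, normalization, weights, covariates and omission of each array and time point.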

Additional observations from a re-analysis of the deposited data

Results flagged for a closer look

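Of 150 groups formed by 30 genes and 5 replicated time points, 12 held an array far from the others, which is 8%, where chance gives about 1 in 20. The stray values and their nearest neighbours were 5.71 against 6.07 for Arntl at T8 replicate 1, 8.5 against 7.86 for Per2 at T16 replicate 4, 8.3 against 7.59 for Per3 at T4 replicate 1, and 8.73 against 7.79 for Cry2 at T8 replicate 3. Bhlhe41 at T16 replicate 1 was 5.42 against 5.89, Csnk1d at T4 replicate 4 was 11.63 against 11.9, and Nfil3 was 9.7 against 10.2 at T0 replicate 3 and 9.36 against 9.69 at T8 replicate 1. Dbp at T8 replicate 4 was 8.16 against 8.48, Tef at T12 replicate 4 was 8.93 against 8.72, Tspan4 at T0 replicate 3 was 7.14 against 7.96, and Zbtb16 at T16 replicate 2 was 8.46 against 9.85.

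The 24 h curves of Dbp, Sphk2 and Dhrs3 differed from the mean of the other arms (limma adjusted p = 0.0354 each). T0 against T4 to T16 differed from the other arms for Alcam (adjusted p = 0.00137) and for Yipf5, Sphk2 and Elf3 (adjusted p = 0.0292 each).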

How the results depend on the processing

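The 1256 rhythmic genes became 798 with the Schwann cell score as a covariate, 680 with normal scores of ranks in the 22 arrays alone, 797 without the T0 arrays and 753 without the T16 arrays (the last 2 chosen after seeing the data), and 962 to 1295 with 1 array left out. Ranks gave 271 genes for time points, 124 and 123 (higher and lower) for T12 against T0, 19 and 9 for T16 against T4, 16 with a 12 h component, and 166 and 242 for T0 against T4 to T16. The 22 arrays alone gave 1023 for time points and 70 with a 12 h component. Array weights gave 184 and 192, 299 and 227, and 200 and 221 for T12 against T0, T16 against T4 and T0 against T4 to T16. The Schwann cell score gave 153 and 187 for T12 against T0 and 325 and 258 for T0 against T4 to T16. Genes higher at T0 were 803 with no filter on dim probe sets and 336 with the 60th percentile filter. The 12 h count was 306 with the residual component, 330 without T20 in every arm and 247 without the adult control T20 array. The rhythm difference had 1 gene with the mean of a gene's probe sets and 0 with myofibre and tenocyte scores. Leaving out 1 array gave 1366 to 1774 for time points, 191 to 333 and 197 to 386 for T12 against T0, 58 to 164 and 52 to 135 for T16 against T4, 68 to 247 for 12 h, 268 to 534 and 248 to 454 for T0, and 0 to 3 for the rhythm difference. Erbb3 (0.11, adjusted p = 0.755) and Pmp22 (0.05, adjusted p = 0.778) turned against their curve with the Schwann cell score, to whose mean they belong. The cause was not tested for the others. With replicate number as a block, 1232 genes were rhythmic. Same-numbered arrays of different times did not deviate together (mean correlation -0.01 over 40 pairs), so the numbers give no pairing. Of 125 called named genes, 44 kept the call in every setting and omission of 1 array, 50 lost it in an omission of 1 array, 49 with ranks, 42 with the Schwann cell score, 35 in the 22 arrays alone, 22 with the mean of a gene's probe sets and 18 without the T20 array.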
